A study of Mus musculus with 6 samples.

Results

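The accessible landscape at 48 h is the set of 88810 open intervals that the authors listed for mouse embryonic stem cells 48 h after withdrawal of their self-renewal factors, out of 258093 intervals in the 3 lists of the series. Every interval of that list was used, with no selection by height or by gene. E14, an established male mouse embryonic stem cell line, was grown on gelatin in N2B27, a defined medium. The comparison group, 2iL, kept CHIR99021, which inhibits the kinase GSK3, PD0325901, which inhibits the kinase MEK, and LIF, a cytokine. The 48 h and 96 h groups were first plated as single cells in 2iL, and that medium was exchanged on the following day for N2B27 without the 3 factors. Each group had 2 samples, A and B, which the authors combined into 1 list per group. Nothing in the labels says that A and B were separate cultures, and 1 list gives no spread between them. All values below are therefore descriptions of these lists, with no test between groups.

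The assay was ATAC-seq, in which a transposase cuts open DNA and tags it for sequencing. Sites between nucleosomes, mostly promoters, enhancers and insulators, are cut most often. Embryonic stem cells in 2iL are in the naive state of pluripotency. When the inhibitors and LIF are removed, they leave that state and pass through a formative stage, in which factors such as OTX2 and POU3F1 take part, before they commit to germ layers. Promoters rich in CpG dinucleotides tend to be open in most cell types, whereas enhancers differ more between cell states.

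An interval is a continuous stretch listed as open, and a summit is a local maximum of the signal within it. An interval was placed by its strongest summit, and it was counted for whichever protein-coding gene had an end closest to it, up to 100 kb away. A gene is said below to have a summit at an end where the strongest summit of an interval lay within 1 kb of that end. Weaker summits of an interval were not counted for this. The locus of a gene is all sequence closer to its ends than to those of any other protein-coding gene, within the same 100 kb. Placement says nothing of which gene an interval acts on. Coordinates are on mm10. The background recovered from the lists' own fold and p values, a measure of depth, was 14.2 tags per position in 2iL, 15.2 at 48 h and 14 at 96 h.

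The promoters of 8 genes illustrate what the 48 h list does and does not hold. They were chosen after the values were seen. Each line gives the 120 bases before the outermost start site, from RefSeq (GRCm38.p6, the assembly of mm10), written 5′ to 3′ on the strand of the gene, with each CpG in capitals. The first 4 belong to the class with a high CpG ratio. Septin9 is the gene with the most intervals, Sox21 has one of the widest, Fgf5 is a formative gene, and Rgs9 has one of the strongest at a gene end. Serpinb5 and Fgf23 have strong intervals at promoters with few CpGs. Alb and Ins1, the albumin and insulin genes of liver and pancreas, start outside any 48 h interval.
Septin9, chr11:117199541-117199660, + strand: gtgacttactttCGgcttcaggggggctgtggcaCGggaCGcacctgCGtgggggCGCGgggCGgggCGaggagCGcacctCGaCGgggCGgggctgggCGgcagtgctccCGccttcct
Sox21, chr14:118237031-118237150, − strand: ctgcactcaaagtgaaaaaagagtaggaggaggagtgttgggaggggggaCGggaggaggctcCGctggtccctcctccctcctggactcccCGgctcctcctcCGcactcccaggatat
Fgf5, chr5:98254064-98254183, + strand: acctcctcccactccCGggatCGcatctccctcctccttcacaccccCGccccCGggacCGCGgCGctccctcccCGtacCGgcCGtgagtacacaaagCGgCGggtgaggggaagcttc
Rgs9, chr11:109298182-109298301, − strand: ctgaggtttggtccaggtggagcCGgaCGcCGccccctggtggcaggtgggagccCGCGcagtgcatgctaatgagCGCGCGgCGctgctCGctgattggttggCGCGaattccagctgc
Serpinb5, chr1:106861055-106861174, + strand: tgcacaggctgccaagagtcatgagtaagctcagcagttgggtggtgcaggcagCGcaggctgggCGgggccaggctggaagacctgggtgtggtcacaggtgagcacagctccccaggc
Fgf23, chr6:127072782-127072901, + strand: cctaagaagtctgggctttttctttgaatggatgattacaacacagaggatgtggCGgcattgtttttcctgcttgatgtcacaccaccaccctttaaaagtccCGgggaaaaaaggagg
Alb, chr5:90460750-90460869, + strand: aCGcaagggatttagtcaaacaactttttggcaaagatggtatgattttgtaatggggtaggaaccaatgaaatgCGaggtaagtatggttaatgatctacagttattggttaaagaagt
Ins1, chr19:52264177-52264296, + strand: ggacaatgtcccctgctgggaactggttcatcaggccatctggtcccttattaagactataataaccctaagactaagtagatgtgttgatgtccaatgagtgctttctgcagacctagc

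The Septin9 stretch holds 14 CpGs, and its start lay in an interval of 1106 bp with 4 summits and a fold enrichment of 10.2. Fold enrichment is the authors' value at the strongest summit over the local background. Rgs9, with 12 CpGs, had a narrower interval of 654 bp with 2 summits and a fold of 31.4. Fgf5 also has 12 CpGs, but its interval of 854 bp had 1 summit and a fold of only 2.72. Sox21, with 4 CpGs, lay in an interval of 2908 bp with 9 summits and a fold of 6.63. With 2 CpGs each, Serpinb5 lay in an interval of 775 bp at a fold of 30.4 and Fgf23 in one of 719 bp at a fold of 30.8. Alb also has 2 CpGs in this stretch and Ins1 has 0.

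The 48 h list covered 64.5 Mb of the genome. Its intervals ran from 150 to 3415 bp, with a median of 658 bp and a middle range of 457 to 927 bp. They held 185562 summits, or 2.09 per interval, against 2.05 in 2iL and 2.13 at 96 h. Of the 48 h intervals, 39.5% had 1 summit and 12.2% had 4 or more, up to 13. Neighbouring summits of an interval lay a median of 265 bp apart, and the 10th and 90th percentiles of this spacing were 205 and 406 bp. Width grew with each further summit, from a median of 421 bp for 1 summit to 936 bp for 3 and 2322.5 bp for 8 or more. Fold enrichment did not grow in the same way. Its median was 6.77 for intervals with 1 summit, 10.2 with 3, 10.4 with 4 and 6.87 for the 198 intervals with 8 or more, so the broadest domains were not the highest.

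Sites at gene ends were wider, had more summits and were higher than distal ones. The strongest summit lay within 1 kb of a protein-coding gene end, a start or a last base, for 16112 intervals at 48 h, which is 18.1% (17.9 to 18.4, exact Clopper-Pearson 95% interval). Such limits reflect counting error alone, as if each region were independent of its neighbours. The share was 16.6% in 2iL and 19.6% at 96 h. Gene-end intervals at 48 h had a median width of 997 bp, 2.92 summits and a median fold of 11.3. The 37910 intervals at 1 to 20 kb, 42.7% of the list, had a median width of 616 bp, 1.98 summits and a fold of 7.24. At 20 to 100 kb there were 24969, with 607 bp, 1.87 summits and a fold of 8.15. The 9819 intervals beyond 100 kb, 11.1% of the list, were the narrowest of the 4 classes, with 562 bp and 1.69 summits, yet their median fold of 8.34 was above that of the sites at 1 to 20 kb. Inside the body of a protein-coding gene lay 53.7% of all 48 h intervals.

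**Figure D1:**
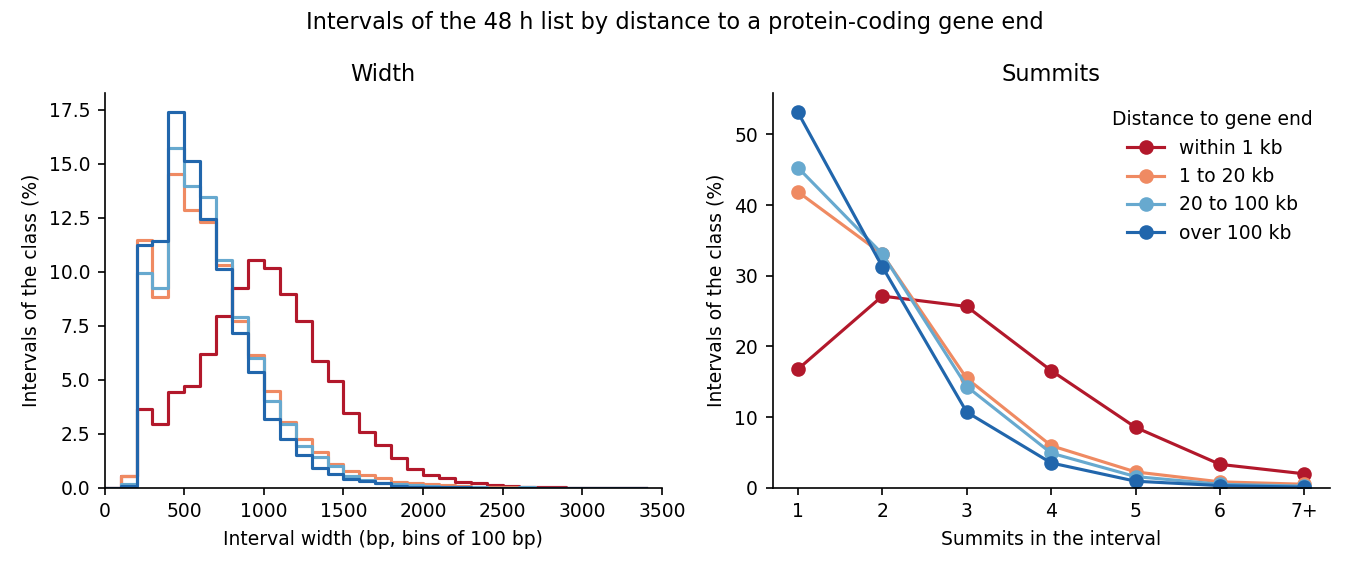
Share of the 48 h intervals of each distance class by width (left, bins of 100 bp) and by number of summits (right, 7+ means 7 or more). Intervals within 1 kb of a gene end (median 997 bp) stand to the right of the 3 distal classes (medians 616, 607 and 562 bp) and are the only class of the 4 in which 1 summit is not the commonest number.

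Most 48 h intervals were also open at one of the other times. An overlap of at least 1 bp was found with the 2iL list for 68.9% of them, with the 96 h list for 69.4%, with both for 53.8% and with neither for 15.5%. Of the 13748 intervals listed only at 48 h, 901 lay within 1 kb of a gene end. Such intervals made up 5.59% (5.24 to 5.96) of gene-end intervals, 16.5% (16.2 to 16.9) at 1 to 20 kb, 18% (17.5 to 18.5) at 20 to 100 kb and 21.2% (20.4 to 22.1) beyond 100 kb. By summits, the share was 22.7% for intervals with 1 summit and 3.59% for those with 4 or more. Among distal intervals alone it was 23.3% with 1 summit and 5.93% with 4 or more. Of intervals narrower than 457 bp, the lower quartile, 27.4% were listed only at 48 h, which gives 6054 of the 13748. Intervals with 1 summit also had the lowest median fold, and how many of them would be listed again in another library of the same cells was not tested.

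Start sites of protein-coding genes divided sharply by their CpG content. The RefSeq promoter table gave 21262 start sites of 17491 of the 21883 protein-coding genes, and those on chromosome 18 were not analysed here. Genes on other chromosomes for which it gave none, among them Pou3f1, Myc and Actb, were left out as well. The values on starts, motifs and first and last bases do not cover these genes. A 48 h interval covered 63.5% of them. The ratio of observed to expected CpG in the 300 bases around the start was called low under 0.3 and high from 0.6. An interval covered 15.4% (14.6 to 16.3) of 6798 starts with a low ratio, 64.5% (63.1 to 65.9) of 4328 with a middle ratio and 95.2% (94.8 to 95.6) of 10136 with a high ratio. The same 3 shares were 13.0%, 58.7% and 93.9% in 2iL, and 14.4%, 61.9% and 95.4% at 96 h. At 48 h, 852 starts were covered that were not in 2iL, against 298 of the reverse kind, and 244 starts were covered at 48 h only. Low-ratio starts made up 119 of those 244, and high-ratio starts 34. Intervals with a high-ratio start were wider (median 1140 bp) than those with a middle (1016.5 bp) or a low one (903 bp), and intervals with none of these starts had a median of 609 bp.

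Summits around high-ratio starts stood in a pair of peaks on either side of the first bases of the gene. In the 200 bases before the start there were 60.9 summits per 100 start sites, with a median fold of 12.3. The first 200 bases of the gene had 35.9, and the next 200 had 54.0, with a lower median fold of 5.88. In bins of 100 bp the count was 42.5 just before the start and 39.2 from 200 to 299 bases after it. Middle-ratio starts had the same order at lower counts, 40.3 before the start and 32.0 in the window from 200 bases after it. For low-ratio starts the counts were 8.77 and 6.35. First bases of genes were open far more often than last bases. Genes longer than 5 kb for which a start site was given numbered 13411. Of these, 71.1% (70.3 to 71.9) had the strongest summit of a 48 h interval within 1 kb of the first base. For the last base the share was 16.0% (15.4 to 16.6). Where the last base was over 2 kb from every start site, the share was 14.1% (13.5 to 14.8) of 12523.

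**Figure D2:**
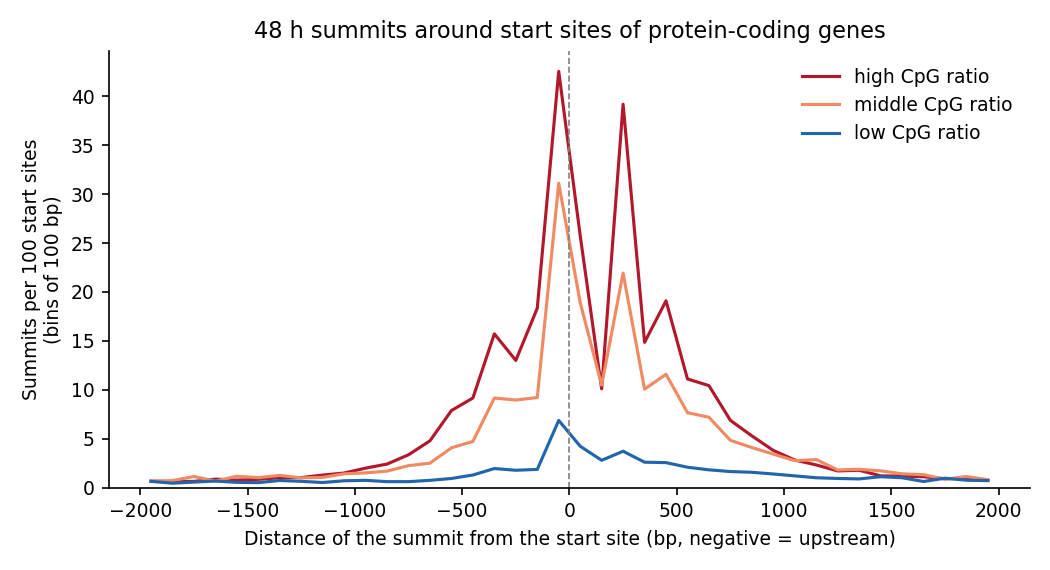
Summits of the 48 h list per 100 start sites in bins of 100 bp, by distance from the start (negative is upstream), for start sites with a high, middle or low CpG ratio. High-ratio starts have 1 maximum just upstream (42.5) and another 200 to 299 bases inside the gene (39.2), with a dip between them.

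Short sequence motifs of the 250 bases before the start differed between covered and uncovered starts. A motif was searched as exact letters on both strands, and a match is a description and not a bound site. The GC box GGGCGG, the letters bound by SP and KLF factors, was present at 61.8% of starts in a 48 h interval, 9.27% of the others and 42.6% of all starts. The ETS letters CCGGAAG stood at 13.2% against 1.65%, with 8.98% of all starts. The NRF1 core GCGCATGC stood at 4.29% against 0.553%, with 2.93% of all. TATAAA, the TATA box, had the opposite order, 5.51% against 22.3%, with 11.6% of all. CCAAT stood at 35.8% and 34.7%, and the POU octamer ATTTGCAT at 1.36% and 1.94%, with 35.4% and 1.58% of all. GC boxes are themselves made of CpG and G or C bases, so the classes of CpG ratio were also taken apart. Within the low class, GGGCGG stood at 23.7% of covered and 5.06% of uncovered starts. Within the high class the shares were 70.2% and 43.7%. The ETS letters stood at 3.43% against 0.818% in the low class and 16.0% against 5.77% in the high one. The NRF1 core differed less within classes than over all starts. It stood at 0.190% against 0.104% in the low, 1.72% against 1.37% in the middle and 5.48% against 3.30% in the high class. TATAAA kept its order in each class, with 10.6% against 23.6% in the low and 4.59% against 13.2% in the high one. The octamer did not, with 2.38% of covered and 2.14% of uncovered starts in the low class, 1.5% and 1.63% in the middle and 1.21% and 0.619% in the high class. CCAAT was near equal in the low class (35.5% and 35.3%) but stood at 35.1% and 23.3% in the high one. Among the promoters printed above, those of Septin9, Fgf5, Rgs9 and Serpinb5 hold a GC box in the 120 bases shown, and those of Rgs9, Alb and Ins1 hold CCAAT.

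Across genes, a minority of loci held a large part of the list. Of the 48 h intervals, 78991 could be placed at a gene, and 17601 of 21883 protein-coding genes (80.4%) had at least 1. The median was 2 intervals per gene, the middle range 1 to 5 and the maximum 46. The 1814 genes with 10 or more intervals were 8.29% of all genes and held 32.8% of the placed intervals. At 48 h, 221 genes had 20 or more, against 297 in 2iL and 123 at 96 h. Counts followed locus length only in part (Spearman's rho 0.453 across the 21883 genes, which are not independent replicates). The shortest loci, the bottom 20% of genes by locus length, had 12 intervals per 100 kb and the longest had 3.26. Of the shortest loci 28.6% had none placed at them, and of the longest 12.5%.

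The gene with the most intervals was Septin9, a filament-forming GTPase of the cytoskeleton, at chr11:117199661-117362325. It had 46 intervals with 102 summits at 48 h, 44 intervals in 2iL and 40 at 96 h. Of the 46, 22 lay inside the gene, 28 were also in both other lists and 5 were in neither. Med13l, a subunit of the Mediator kinase module, followed with 42 at 48 h, 41 in 2iL and 27 at 96 h. Cacna1a, the pore of P/Q-type calcium channels, and Grik3, a kainate receptor subunit, had 39 each. In Cacna1a 36 of them were inside the gene and 1 was listed only at 48 h. Epb41l4a, a FERM domain protein, had 38, and the zinc finger factor Zfp423 had 37 with 87 summits.

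Casz1, a zinc finger factor of heart and retina development, had 36 intervals at 48 h, 24 in 2iL and 29 at 96 h. Mvb12b, a subunit of the ESCRT-I sorting complex, had 35 against 19 and 24, with 14 that were in neither other list. Katnal1, a katanin that severs microtubules, had 34 against 22 and 18. These 3 loci had the largest excess over both other lists among the 15 leading genes. Dnah8, a dynein of the sperm tail, had 35 at 48 h and 32 in 2iL but 17 at 96 h. The Hedgehog factor Gli2 had 34, fewer than its 39 in 2iL and more than its 25 at 96 h. The remaining leaders were Zfp516 (36), and Prex1, Igsf21 and Zmynd8 with 34 each.

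Together the 15 genes held 553 intervals, of which 268 were in both other lists and 112 (20.3%) in neither, against 14.8% in neither for the intervals placed at all genes. The number at 48 h was above that in 2iL for 10 of the 15 and above that at 96 h for 14. These genes were chosen for being high at 48 h, so this order and the larger share in neither other list are fixed in part by the choice. Of the 15, 8 were also among the 15 leaders in 2iL and 8 among those at 96 h. Over all genes the counts at 48 h ranked much as in the other lists, with rho 0.900 against 2iL and 0.921 against 96 h, all from lists of the same cell line with common genes and loci. Next in order were Zfp64 with 33 intervals, Gins2, Sipa1l3, Sipa1l2, Mtcl1 and Smad6 with 32, and Arid1b, Lmx1b, Arl15 and Grhl2 with 31. Lmx1b, a LIM homeobox factor, stood out among these with 31 at 48 h against 16 in 2iL and 28 at 96 h.

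**Figure D3:**
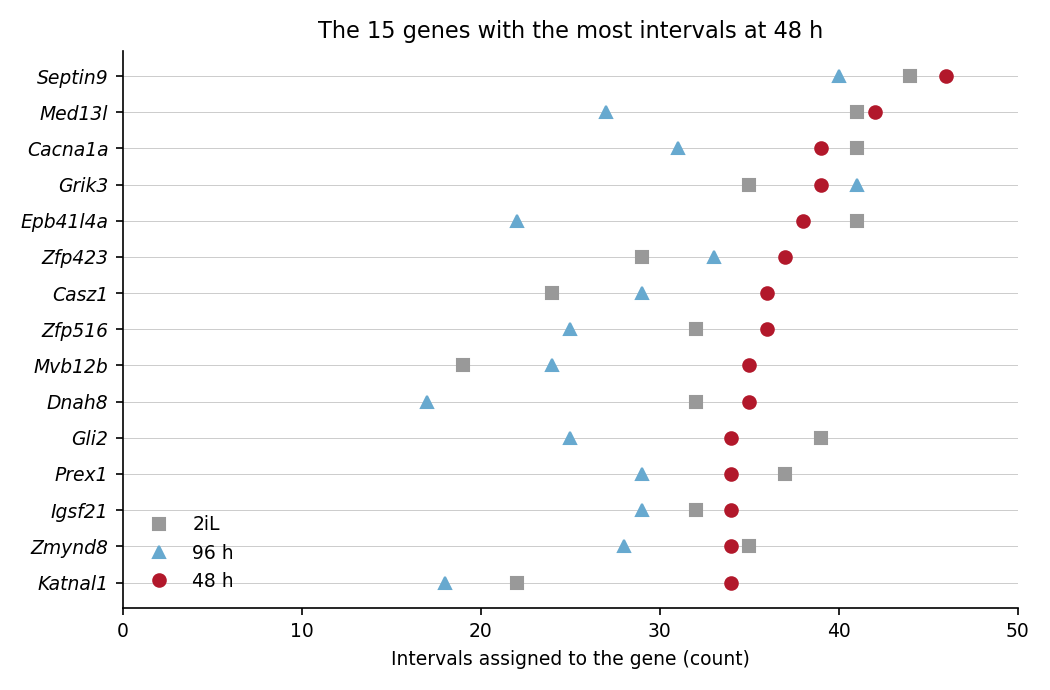
Intervals assigned to the 15 genes with the most at 48 h (circles), with the same count in 2iL (squares) and at 96 h (triangles). Septin9 leads at 48 h with 46, and Mvb12b, Casz1 and Katnal1 show the widest gaps to both other lists.

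The ranking rests on the rule that places an interval at a gene. With every gene of the annotation in place of protein-coding ones, Septin9 kept 9 intervals and Sipa1l3 led with 29. When the body of a gene counted as well as its ends, the long genes Gse1 (70), Camta1 (61) and Tenm4 (56) led and Septin9 had 46. With a limit of 20 kb in place of 100 kb, Zmynd8, a reader of acetylated chromatin, led with 18. Between them the 7 other settings gave Zmynd8 18 to 41 intervals and a rank of 47 or better, the narrowest range of ranks of the 15 genes.

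Counted per 100 kb of locus, a different set of genes led. Among genes with at least 8 intervals, those of the leading 10 described here had 35.2 to 40.3 per 100 kb. Tor3a, a torsin ATPase at chr1:156653617-156674339, had 40.3 per 100 kb, with 10 intervals at 48 h, 5 in 2iL and 5 at 96 h. Dpf1, a neuronal subunit of the BAF remodelling complex, had 39.4. Ppp1r13l, an inhibitor of p53, had 38.7 and Mex3a, an RNA-binding protein, 38.5. The others were Tnfsf12, Grasp, the H3K27 demethylase Kdm6b, Capns1 and Ppfia3, between 37.2 and 35.2. Their loci were short, from 20.3 kb for Dpf1 to 28.4 kb for Ppfia3, against a median locus of 46.5 kb. The median over all genes was 5.08 intervals per 100 kb.

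By summits per interval the leaders were again different. Among them, Cplx2, a regulator of synaptic vesicle release, and Macrod1 had 3.5 each, with 28 summits in 8 intervals, the hypoxia factor Epas1 3.38 and the homeobox gene Dlx2 3.33. By summits in all, Zfp64 (80), Dab2ip (74) and Esrrb (74) joined 7 of the 15 leaders by intervals.

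**Figure D4:**
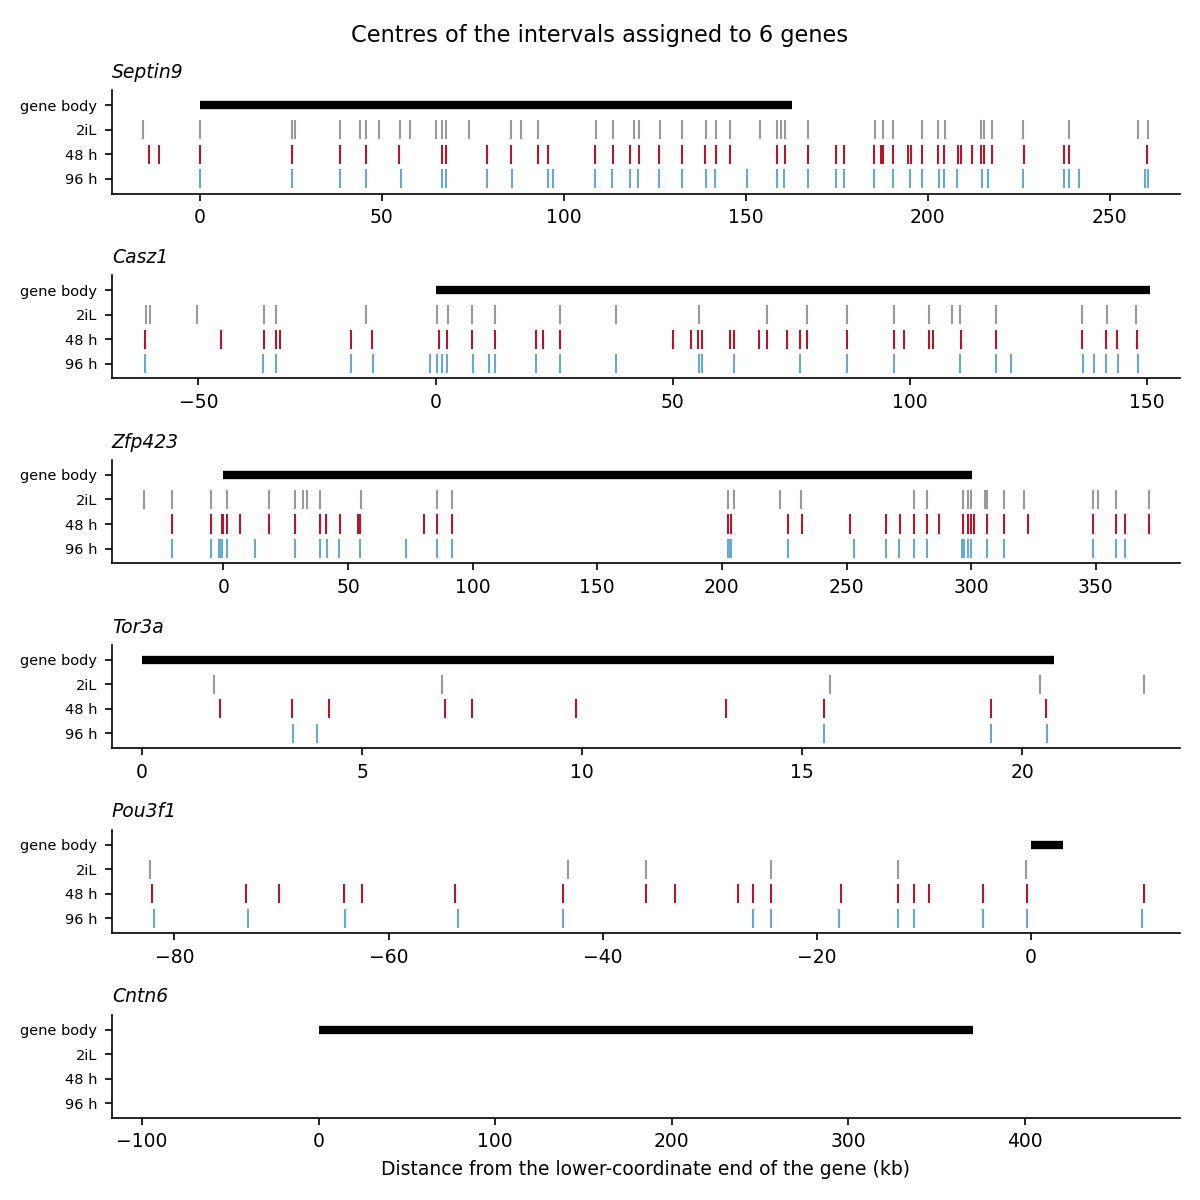
Centres of the intervals assigned to 6 genes in the 3 lists, by distance in kb from the lower-coordinate end of the gene, with the gene body as a bar. The 48 h row has 46 marks at Septin9, 36 at Casz1, 37 at Zfp423, 10 at Tor3a, 19 at Pou3f1 and 0 at Cntn6. Any interval over 100 kb from both ends of a gene is not shown.

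At the other extreme, 4282 genes (19.6%) had no interval placed at them at 48 h. Such a gene may still have a summit at an end, where the interval was placed at another gene. Of the ribosomal protein genes, 71 had a placed interval and 75 a summit at an end. The longest locus without an interval was that of Cntn6, a neural adhesion protein, whose gene covers chr6:104492662-104863406. Its locus of 400 kb, the longest that the rule allows, had none in any of the 3 lists. Sequence over 100 kb from both ends, such as the middle of this gene of 371 kb, is not part of a locus. Empty loci in all 3 lists were also those of Skint5 and Skint6, of a family expressed in skin and thymus, and of Gm40862, Mageb18 and Gm34521. Malrd1 had 3 intervals at 96 h, Agmo had 3 in 2iL, and Mgat4c and Catsperb, a part of the sperm calcium channel, had 1 each in 2iL.

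The widest interval at 48 h measured 3415 bp, had 13 summits and lay at chr16:20619473-20622887 in Camk2n2, an inhibitor of CaM kinase II. Next were intervals in Csf2ra, a subunit of the GM-CSF receptor (3377 bp), in the atypical cadherin Fat4 (3312 bp), in Tril (3262 bp) and in Tfeb, the regulator of lysosome genes (3109 bp). Rreb1, Rims2, the H3K36 methyltransferase Nsd1, Sox21 and the guidance cue Ntn1 completed the 10 widest, down to 2906 bp. All 10 were in the 2iL and 96 h lists too, and their folds lay between 3.94 and 7.82. The intervals with the most summits added Foxe1 (11) and the adrenergic receptor Adrb1, Kcng3 and Lrrc4 (10 each). Intervals of at least 2 kb, a width chosen after the data were seen, numbered 558 at 48 h, 398 in 2iL and 466 at 96 h. Of the 558, 54.3% (50.1 to 58.5) lay within 1 kb of a gene end and 247 held a high-ratio start. They had 6.92 summits on average and a median fold of 7.70. Both other lists held 95.7% of them, and 3 were listed only at 48 h.

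The highest intervals were of ordinary width and not among the broad ones. At gene ends the highest fold was 33.3, in an interval of 383 bp at chr9:123461866-123462248 within Lars2, the mitochondrial leucyl-tRNA synthetase. Rgs9, a regulator of G protein signalling in photoreceptors and striatum, followed at 31.4, Lipo3 at 31.1 and Fgf23, the phosphate hormone of bone, at 30.8. Gm36298, Zfp935, Zfp960, Serpinb5, the connexin gene Gja10 and Capsl completed the 10, down to 29.99. Of these, the interval of Serpinb5 was in the 2iL list and not in the 96 h list, and the other 9 were in all 3 lists. Distal intervals reached higher. The maximum was 38.2, 17.5 kb from an end of Zfp640 at chr13:66697947-66698794, followed by 37.2 within Gm31714, which was absent from the 96 h list, and 36.1 near St6galnac3. One of the 10 lay 501 kb from its nearest protein-coding gene, Gdi2, and another lay inside Dlg2, 258 kb from its nearer end. The 20 intervals ranged from 356 to 883 bp, with 1 to 3 summits, around the median of 658 bp for the whole list. No repeated or poorly mappable sequence was removed here, and its part in these high folds was not tested.

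Formative and primed genes had more intervals at 48 h than before withdrawal. All 19 genes of this list had an interval (80.4% of all genes did), and 17 had a summit within 1 kb of an end, against 66.4% of all genes. They held 212 intervals at 48 h, 159 in 2iL and 179 at 96 h, with a median of 8 per gene and 13.4 per 100 kb. Over all genes the placed intervals numbered 78991 at 48 h, 81058 in 2iL and 68470 at 96 h. Of the 212, 41 (19.3%) were listed only at 48 h, against 14.8% of the intervals placed at all genes. Pou3f1, which encodes the POU factor OCT6, had 19 intervals at 48 h, 6 in 2iL and 13 at 96 h, none of the 19 inside the gene, which is 3.01 kb long. Grhl2, a factor that opens epithelial enhancers, had 31 against 22 and 20. Dnmt3a, a de novo DNA methyltransferase, had 19 against 12 and 15, and Dnmt3b 12 against 9 and 10.

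Other members were as high at 96 h. Otx2, the homeobox factor of the formative state, had 13 intervals at 48 h and 13 at 96 h against 8 in 2iL, Sox4 14 and 14 against 10, and Epha2 14 and 14 against 10. Fgf5, the marker of primed cells whose promoter is printed above, had 6 at 48 h, 2 in 2iL and 4 at 96 h. Foxd3 went the other way, with 11 at 48 h against 18 in 2iL. Cldn6 had 1 interval, at 48 h only. Lef1 had 26 at 48 h against 27 in 2iL.

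Naive pluripotency genes still had many intervals. All 20 had at least 1, and 16 had a summit at an end, against 17 in 2iL and 14 at 96 h. They held 198 intervals at 48 h, 277 in 2iL and 130 at 96 h, with medians of 7.5, 13 and 6. Esrrb, the orphan nuclear receptor of the naive network, was nearly as high as in 2iL, with 28 against 29, and had 17 at 96 h. Of the 28, 18 overlapped a 2iL interval, a share near the 68.9% of all 48 h intervals. Morc1 had 21 against 24 in 2iL and 6 at 96 h, and Zfp42, which encodes REX1, had 11 against 14 and 2. At other members the 48 h count was already close to that at 96 h. Klf4 had 7 at 48 h and 7 at 96 h against 15 in 2iL, Tfcp2l1 6 and 7 against 16, Tet2 9 and 7 against 20, and Nanog 6 and 6 against 9. Klf4 and Tfcp2l1 had no interval that was listed only at 48 h, and Nr5a2 had 7 of its 19.

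Genes of pluripotency in general, which both states express, had 114 intervals at 48 h, 100 in 2iL and 81 at 96 h over 12 members, at 14.3 per 100 kb. Sox2 had 26 at 48 h, 21 in 2iL and 17 at 96 h, and the zinc finger gene Zfp281 24 against 20 and 13. Pou5f1, which encodes OCT4, had 5 in each list. Dppa4 had 6 against 5 in 2iL and 0 at 96 h, and 5 of the 6 overlapped neither other list.

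Gene lists named for signalling pathways and for growth differed among themselves. Activin/Nodal signalling and growth were not among the signals withdrawn. Lists called targets also hold pathway components, such as the LIF receptor gene Lifr. The 16 WNT targets held 175 intervals at 48 h, 222 in 2iL and 158 at 96 h. Tcf7l1, the repressor whose action GSK3 inhibition relieves, had 20 against 36 in 2iL, while Axin2, a feedback inhibitor, had 16 against 17. The 11 LIF/STAT3 targets held 70 against 105, a list that shares Klf4, Tfcp2l1 and Gbx2 with the naive one. Socs3, the feedback inhibitor of LIF signalling, had 10 against 11. The 14 FGF/ERK targets, whose pathway the MEK inhibitor blocks, held 127 against 140, with a median of 9 in both. Dusp4 had 9 against 4 and Spred2 21 against 31. The 12 Activin/Nodal targets held 73 against 69 at 14.6 per 100 kb, and Skil, a SMAD co-repressor, had 11 at 48 h against 4 in 2iL and 4 at 96 h. Genes of the G1 phase and of growth had 108 intervals against 135 in 2iL, with Cdk6 at 13 against 26 and Ccnd2 at 11 against 6.

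Nearly all germ-layer genes had intervals at 48 h, as did 80.4% of all genes, and the share with a summit at an end, 66.4% over all genes, differed between the lists. All 22 neural genes had an interval and 21 had a summit at an end, with 174 intervals against 149 in 2iL and 199 at 96 h. Of the 174, 17 (9.77%) were listed only at 48 h, against 14.8% over all genes. Lhx5, a LIM homeobox factor of the forebrain, had 14 against 5 in 2iL and 12 at 96 h, Pax7 23 against 15 and 24, and Pax6 14 against 9 and 16. Sox1 had 15 against 16 and 14. Mesoderm and streak genes had 92 intervals against 93 in 2iL and 106 at 96 h. Each of the 17 had a summit within 1 kb of an end, Tbx6 included, although the interval there was placed at another gene. Eomes had 11 against 10 and 13, and T had 6 against 6 and 5. Definitive endoderm genes held 70 against 58 and 77, at a density of 4.99 per 100 kb close to the median of all genes. A summit lay at an end of 7 of these 11 (63.6%), below the share of all genes, and Foxa2 had 15 against 12 and 14. The 12 germline genes had a median of 2, as over all genes, with 57 intervals in all, of which Prdm1 had 18 and Tfap2c 15.

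Markers of other cell types were used to read the labelled cell type, though an open region does not show that a gene is expressed. Intervals were placed at 11 of 11 markers of extraembryonic endoderm, 11 of 12 of trophoblast (Tpbpa had none in any list) and 8 of 10 of fibroblasts (Lum and S100a4 had none at 48 h). Summits at an end were found for 6 of 11, 9 of 12 and 6 of 10. Over all genes, 80.4% had an interval and 66.4% a summit at an end, so these counts lie near the background. Several of these genes, such as Gata4, Gata6, Eomes and Tfap2c, are also on the germ-layer or germline lists. Of 16 genes of unrelated tissues, 11 had an interval, and 5 (31.2%) had a summit at an end, the lowest share of the 17 lists. Alb, Ins1, Hbb-b1 and the surfactant gene Sftpc were among those with no interval placed at them. Sftpc nevertheless had a summit at an end, in an interval placed at another gene. Acta1, the actin of skeletal muscle, had 5 and Ins2 had 4. The part of other cells in these intervals was not tested.

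Housekeeping genes had dense intervals in short loci. Their median was 3 per gene, against 2 over all genes, and 17 per 100 kb, the highest of the 17 lists, and 19 of 20 had a summit at an end. Ywhaz, a 14-3-3 protein, had 25 and Actb 10. Hprt had no interval in any of the 3 lists. Some sublines of E14 are known to carry a deletion in Hprt, and whether this one does was not tested.

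**Figure D5:**
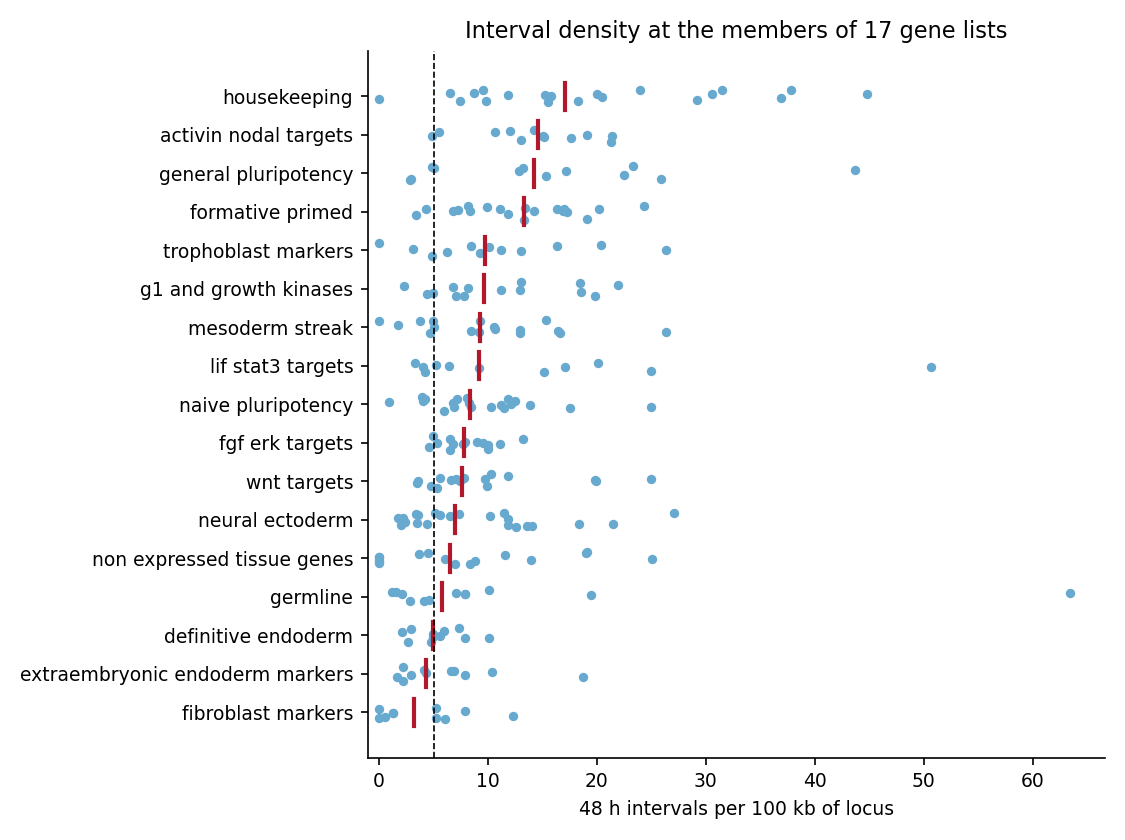
Intervals at 48 h per 100 kb of locus for each member of the 17 gene lists (points), with the median of the list (red bar) and of all protein-coding genes (dashed line, 5.08). Medians run from 3.28 for fibroblast markers to 17 for housekeeping genes, and members of 1 list differ widely.

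Gene families gave the same contrast of dense and empty loci. The 39 Hox genes, which pattern the body axis, held 135 intervals at 48 h, 99 in 2iL and 128 at 96 h, at 19 per 100 kb. A summit lay at an end of 34 of the 39, against 25 in 2iL and 32 at 96 h. Hoxc4 had 9 intervals and Hoxd3 had 8, of which 4 overlapped a 2iL interval and 8 a 96 h interval. Of 76 ribosomal protein genes, 75 (98.7%) had a summit at an end, and their density was 19.1 per 100 kb. The 63 histone genes of the clusters had the highest median density of the 15 families examined, 22.9 per 100 kb, with 58 open at an end. That density came with short loci and few intervals. The median histone gene had 1 interval in a locus of 4.52 kb, against medians of 2 and 46.5 kb over all genes. Short loci had the higher densities over all genes too. Of the 1110 olfactory receptor genes, 186 had an interval and 28 (2.52%) a summit at an end. Of 355 vomeronasal receptor genes, 81 had an interval and 2 a summit at an end. Families of development lay between these, with every one of the 19 Sox, 9 Pax and 19 Wnt genes at 1 interval or more. Pax genes had a median of 11 per gene, led by Pax2 (25) and Pax5 (24), and Wnt7b had 21. The Pax loci were long, with a median of 196 kb, and their median density was 6.42 per 100 kb, against 5.08 over all genes.

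Density also varied between chromosomes. The autosomes ran from 25.1 intervals per Mb on chromosome 14 to 54.6 on chromosome 11. The X chromosome had 10.1 per Mb, 1731 intervals in all, and the Y chromosome had 20. A male line has 1 copy of the X, and the part of copy number in this difference was not tested. The median fold of the listed X intervals was 9.17 and their median width 709 bp, above the autosomal ranges of 7.70 to 8.55 and 628 to 681.5 bp.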

How the data were processed

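Open chromatin of 6 samples, 2 in each of 3 groups, was described from 1 peak list per group, made by the authors from both samples together. Per the submitters' processing notes, bcl2fastq 2.20.0.422, BWA, SAMtools and Picard were used, on build mm10. Which caller made the lists, with which settings, and whether reads were shifted or duplicates removed is not given in the sources used here. Such steps could change which weak, narrow intervals are listed. The deposited fold enrichment is a linear ratio over local background at each summit, and the authors' p values were deposited as −log10 p. Both were used only within a list. Lines with the same interval were joined, and its strongest summit, by −log10 p, stood for it. Depth came from solving fold and p for whole tag counts, which succeeded for 100% of 3000 summits per list. These were drawn at random from summits with −log10 p below 290. A Poisson p value and a fold with 1 tag added to signal and background were assumed.

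Gene positions came from a RefSeq table of GRCm38.p6 (21883 protein-coding genes), start sites and strands from its promoter table. Overlap meant at least 1 bp. No test between groups was possible, since a list gives 1 value for 2 samples, and shares have exact Clopper-Pearson 95% intervals. The assignment, tested on simulated positions, matched a direct search for 600 of 600. Named genes were the leaders by intervals (15), density, summits, width and fold (10 each), the longest empty loci, and up to 6 leading members of 17 gene lists (249 entries, all matched). Some genes that this rule selects are not reported here. Members and lists were chosen with earlier results of these data known. CpG classes, motifs, the 2 kb class, printed promoters and densest windows were chosen after the values were seen. Python 3.11.15, pandas 2.3.3, NumPy 2.4.6 and SciPy 1.17.1 were used. Other lengths of the list, positions, gene sets, windows, assignments and overlaps were tried.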

Additional observations from a re-analysis of the deposited data

How the results depend on the processing

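No paired analysis was possible because each list combines samples A and B and carries no value per sample. Weak intervals and the assignment rule set most of the counts. The gene-end share of 18.1% became 28.9% in the stronger 50% of intervals by −log10 p, 19.7% when the list was shortened to the 78055 strongest, 24.2% with all genes of the annotation, and 14.3% or 23.7% with windows of 500 bp or 2 kb. The median of 2 intervals per gene became 1 in the stronger 50%, 1 with all genes and 8 when every gene with an end within 50 kb counted. Genes with 10 or more, 1814, became 253, 652 and 9475 under the same 3 settings, and 319 within 20 kb. Of the 15 leading genes, 6 stayed among the leaders in the stronger 50%, 2 with all genes, 4 within 20 kb, 1 with every gene within 50 kb and 5 by nearest gene body.

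Asking for an overlap of at least 50% of both intervals gave shares of 63.4% in 2iL, 65.8% at 96 h and 19.2% in neither list, and lists of equal length gave 69.3%, 75.1% and 12.6%. With only summits above the median −log10 p, the median width was 754 bp and there were 1.51 summits per interval. The number of members with an interval stayed within 1.5 times for 119 of 119 values of the 17 lists under 7 settings, and 39 of 119 medians were unchanged. Of the 17 lists, 15 had a median above that of all genes, and 13 to 16 did under these settings. These medians are counts per gene, which are higher in longer loci. By median intervals per 100 kb, definitive endoderm (4.99), extraembryonic endoderm (4.36) and fibroblast markers (3.28) were below all genes (5.08), and the other lists were above.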

Other observations

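The densest 100 kb stretches of the 48 h list, sought after the values were seen, were mostly gene-rich. The stretch at chr10:81266650-81366649 held 32 intervals over 10 genes, among them Tjp3, a tight junction protein, and Tbxa2r, the thromboxane receptor. Of its 32 intervals, 20 were also in the 2iL list and 22 in the 96 h list. Another 32 lay at chr7:27306354-27406353 over only 3 genes, Ltbp4, which binds latent TGF-beta, Shkbp1, and Sptbn4, a spectrin of axons, with 26 in 2iL and 28 at 96 h. A stretch at chr8:120509292-120609291 with Gse1 and the replication gene Gins2 had 31, of which 16 were in the 2iL list. The histone cluster at chr13:23485454-23585453 had 30 intervals over 16 genes, with 19 in 2iL and 27 at 96 h. Over the whole list, neighbouring intervals were a median of 8.81 kb apart, and 9.66% of the gaps were under 1 kb.

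Among other families, all 94 genes with symbols beginning Kcn, which encode potassium channels and their partners, had an interval at 48 h, and 69 had a summit within 1 kb of an end. Of 397 Zfp genes 376 had an interval, against 80.4% of all genes. Keratin and keratin-associated genes had a median of 0, with 51 of 112 at 1 or more, and Krt80 led them with 11. The 69 protocadherin genes held 162 intervals at 48 h, 121 in 2iL and 126 at 96 h, of which 34 (21.0%) were listed only at 48 h, against 14.8% over all genes.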
